A study of Citrus sinensis with 72 samples.

Results

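Among 30940 genes of the sweet orange fruit table, 89 had a lower level in the epicarp (EP) and a higher level in the albedo (AL) at full ripening than in the young fruit. They were chosen from measured values: for each gene the mean FPKM (fragments per gene, divided by gene length and by the total fragments of the library) of each tissue and stage was put on a scale of log2(mean FPKM + 1), and stage 6 minus stage 1 had to be at most -0.7 in EP and at least 0.7 in AL. The segment membrane (SM), the juice sac (JS) or both had to stay below 0.7 on the same difference, the highest group mean had to lie between 5 and 3000 FPKM, and the mean levels of the 4 tissues over the 6 stages had to span less than 1. Of the 30940 genes, 15920 had a highest group mean in that range, 9869 of these also had tissue means within the span, 2091 of these fell in EP, 99 of these rose in AL, and 89 met the last condition. Stage 6 minus stage 1 in EP and AL is therefore a description of how the genes were found and carries no test here.

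The fruit were 'Fengjie 72-1' navel orange (Citrus sinensis), from trees grafted on Poncirus trifoliata. AL, SM, JS and EP were dissected by hand at 6 stages. Stages 1, 2 and 3 were at 50, 80 and 120 days after flowering (DAF), and stages 4, 5 and 6 at 150, 180 and 220 DAF. The day of stage 4 is that of the sample labels, and the study's methods give another. Each of the 24 combinations of tissue and stage had 3 libraries, each from mixed fruit of 3 trees, and the same trees served every tissue and stage.

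EP is the coloured outer layer of the peel, with the cuticle, oil glands and plastids that change from green to orange as the fruit ripens. AL is the white spongy layer inside it, built of loosely packed cells with large air spaces, and it thickens early in fruit growth and is compressed later. SM is the wall around each segment, and JS are the vesicles that hold the juice. The gene IDs of the table could not be paired with names, so no role is given for any gene, and the tissue labels were not checked against marker genes.

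The libraries held between 15365222 and 25424357 fragments, as recovered from the steps of the FPKM values, with a median of 19458684. Of the 72 libraries, 3 correlated best with a library outside their own group, namely replicate 1 of AL2, of AL3 and of EP2. The members varied most between replicates in these same AL stages: the median SD of log2(FPKM + 1) over the members was 0.479 in AL2 and 0.39 in AL3, and 0.132 to 0.332 in the other 22 groups. Tests covered the 20077 genes that reached an FPKM of 1 in 3 or more libraries, for which the corresponding medians were 0.351 in AL2 and 0.357 in AL3. All 89 members were among these 20077 tested genes. RNA integrity, as the study lists it, was higher in every AL5 library than in any AL2 library. In EP5 every library but replicate 1 lay below every EP2 library. Whether RNA integrity moved the results was not tested.

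The members were low in AL at stage 1 and near their later level by stage 2. Their median log2(mean FPKM + 1) in AL was 2.31, 3.66, 3.61, 3.51, 3.18 and 3.42 at stages 1 to 6. In EP the medians were 3.82, 3.79, 3.75, 3.37, 3.00 and 2.83. The EP series was therefore flat over the first 3 stages and lower at each later one, while the AL series stepped up once and then declined to stage 5. In whole tissue, a smaller number of cells that express a gene and less RNA per cell cannot be told apart.

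**Figure D1:**
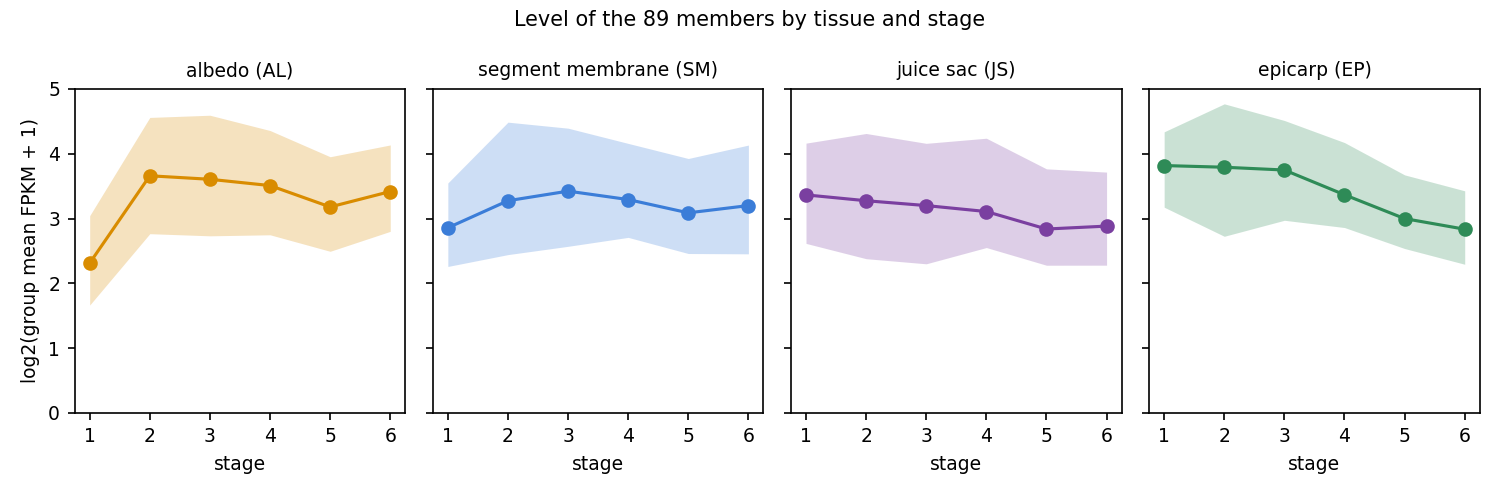
Level of the 89 members in AL, SM, JS and EP over stages 1 to 6. The vertical axis is log2(group mean FPKM + 1), points are medians over the members and the shaded band runs from the lower to the upper quartile; AL stands at 2.31 at stage 1 and 3.66 at stage 2, and EP declines to 2.83 at stage 6.

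AL2 minus AL1 had a median of 1.16 on that log2 scale over the members, and was positive in 85 and at least 0.7 in 65 of them. Over all tested genes the median of AL2 minus AL1 was 0.11, 20.3% were at least 0.7, and 16.1% were at most -0.7, which 0 members were. The step from stage 1 to stage 2 amounted to a median of 121% of the whole difference between stages 6 and 1 in AL, and it equalled or exceeded that difference in 51 members. AL6 minus AL2 had a median of -0.23 and was negative in 51 members. AL was lowest at stage 1 in 76 of the 89. In those 76 the rise in AL that defines the set was thus a low level at 50 DAF set against every later stage. By the medians it was not a steady climb to ripening. AL was highest at stage 2 in 25 members, at stages 3 and 4 in 17 each, at stage 5 in 10 and at stage 6 in 20. AL6 minus AL2 was positive in 38 members and at least 0.7 in 11. Because AL1 entered the choice of members, these values are a description.

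EP followed another timing. EP was highest at stage 1 in 40 members, at stage 2 in 29, at stage 3 in 19 and at stage 4 in 1. It was lowest at stage 6 in 55 and at stage 5 in 20. EP3 minus EP1 made up a median of 9.78% of EP6 minus EP1, so by the median most of the fall lay after 120 DAF. The members differed widely, with quartiles of -28.1% and 53.8%, and 8 had at least the whole fall by stage 3. EP2 minus EP1 was at most -0.7 in 12 members and at least 0.7 in 16. This is again a description, since EP1 and EP6 chose the members.

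AL and EP crossed over. AL minus EP, in log2(mean FPKM + 1), had a median over the members of -1.39, -0.03, 0.01, 0.03, 0.16 and 0.58 at stages 1 to 6. At stage 1, AL was higher than EP in 1 member, and at stage 6 it was higher in 84. Every AL library lay above every EP library in 0 members and below every EP library in 87 at stage 1, beside 16.8% and 48.6% of all tested genes. At stage 6, AL lay wholly above in 64 members and wholly below in 1, beside 26.6% and 26.4%. Both of these stages chose the members, so nothing is read from those counts.

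Stages 2 to 5 did not enter the stage 6 minus stage 1 differences, although they entered the mean level of each tissue and the highest group mean. At stage 2, AL lay wholly above EP in 8 members (12.1% of tested genes did) and wholly below in 9 (25%). At stage 3 the counts were 14 above (12.1%) and 17 below (32.4%), and at stage 4 they were 15 above (15.8%) and 17 below (34.3%). At stage 5 AL lay wholly above EP in 22 members (18.2%) and wholly below in 10 (30.3%). From 80 to 150 DAF the median of AL minus EP thus stayed near 0, which the limit on the span of tissue means favours.

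The 2 changes that chose the set were close to the threshold for many members. EP6 minus EP1 had a median of -0.91 and a range of -1.86 to -0.70, and 24 members lay within 0.1 of the threshold. Of all tested genes, 27.5% were at most -0.7 and 14.2% at least 0.7 in EP, and 27% were at least 0.7 and 21.9% at most -0.7 in AL. AL6 minus AL1 had a median of 0.97 and a range of 0.71 to 2.39, with 18 within 0.1. Just inside the EP threshold lay orange1.1t04233 at -0.7001 and Cs8g19670 at -0.7033, and just outside it, otherwise meeting the rule, lay Cs3g09180 at -0.6997 and Cs5g28530 at -0.6977. In AL, Cs7g25970 at 0.709 and Cs9g06000 at 0.7153 lay inside, and Cs6g01650 at 0.6968 and Cs2g19620 at 0.6893 outside.

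The largest AL6 minus AL1 belonged to Cs8g08990, at 2.39, with 21, 15.5 and 18.5 FPKM in AL6 against 2.36, 4.39 and 1.31 FPKM in AL1. It was followed by orange1.1t03197, at 2.18, with 13.6, 8.44 and 11.6 FPKM in AL6 against 1.25, 2.01 and 1.83 FPKM in AL1. In both, AL2 was already about as high, with 29.3, 21.7 and 11.6 FPKM for Cs8g08990 and 11.2, 14.5 and 20.7 FPKM for orange1.1t03197. The largest fall in EP was that of Novel00651, at -1.86, with 2.96, 3.51 and 3.51 FPKM in EP6 against 14.1, 13.1 and 17 FPKM in EP1. Cs2g06290 came next, at -1.84, with 6.2, 7.16 and 10.3 FPKM in EP6 against 32.6, 27.1 and 32.9 FPKM in EP1. These 4 genes were picked by the values that chose the set.

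The choice of members also depended on how libraries were scaled. FPKM divides by the total of each library, and when libraries were instead scaled by the median ratio of 15378 genes, the mean ratios were 1.15 in AL6 and 0.891 in AL1, and 1.13 in EP6 and 1.26 in EP1. After that scaling the median of AL6 minus AL1 over the members was 0.67 and that of EP6 minus EP1 was -0.76. Over all tested genes the median of AL6 minus AL1 was -0.08 after scaling and 0.13 as deposited, and that of EP6 minus EP1 was -0.08 after scaling and -0.20 as deposited. All 89 kept a positive difference in AL and a negative difference in EP, but 41 still reached 0.7 in AL, 51 still reached -0.7 in EP, and 21 met the whole rule. Single libraries mattered too. Leaving out 1 library of stage 1 or stage 6 at a time, between 76 and 111 genes met the rule, and 66 to 89 of these were members. The fewest members stayed without EP1 replicate 3 (66), EP6 replicate 3 (71) and AL1 replicate 1 (74). All 89 stayed without SM1 replicate 1, SM6 replicate 2 or JS6 replicate 2.

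**Figure D2:**
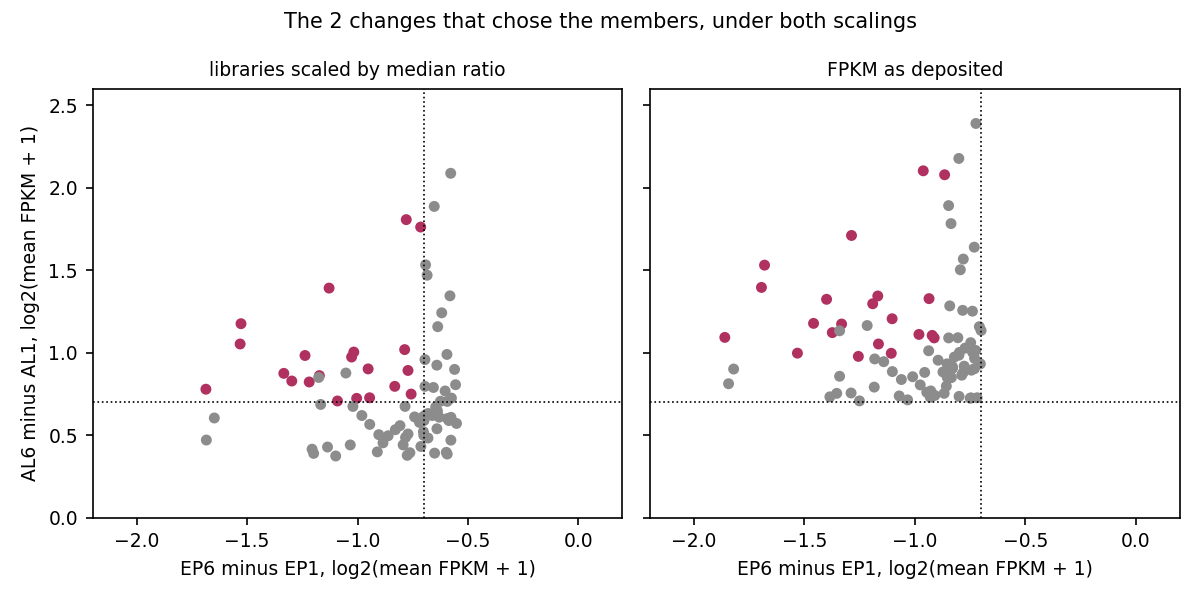
The EP (horizontal) and AL (vertical) differences between stages 6 and 1 of the 89 members, in log2(mean FPKM + 1), after median-ratio scaling of the libraries and with FPKM as deposited. Each point is a gene, dotted lines mark -0.7 and 0.7, and red points are the 21 members that met the whole rule after scaling; every point keeps its signs.

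The comparison of stage 5 with stage 2 asked whether the members also moved apart within each tissue in libraries that the stage 6 minus stage 1 difference did not use. These libraries still entered the tissue means and the highest group mean of the rule. Cs9g01220, for example, reached 5 FPKM only in AL2, AL3 and EP2 (6.47, 5.65 and 7.31 FPKM), which favours a lower call in stage 5 vs. stage 2. In EP5 vs. EP2, 52 of the 89 members were lower and 5 higher at an adjusted p under 0.05 (limma on log2(FPKM + 1), Benjamini-Hochberg over all tested genes), against 26.2% of all tested genes lower and 21.3% higher. The median log2 fold change of the members was -0.73, against -0.05 over all tested genes. In AL5 vs. AL2, 38 members were lower and 11 higher, against 22.5% and 22.8% of all tested genes, with a median of -0.38 for the members and 0 for all tested genes. The members were therefore more often lower than higher in both peel layers over this interval, AL included. Without the 3 libraries that stood apart, 48 were lower and 7 higher in EP, and 36 were lower and 16 higher in AL, beside 25.4%, 26.7%, 24% and 28.3% of the genes tested then. The small counts of members called higher moved with single libraries. Without EP2 replicate 2 or without EP2 replicate 3, 0 were higher in EP, beside 17.3% and 16.6% of the genes tested then. Without EP2 replicate 1, 7 were (24.8%), and without any 1 of the EP5 libraries 3 were (18.5% to 18.9%). In AL, 3 were higher without AL2 replicate 3 (15.7%) and 15 without AL2 replicate 1 (26.6%).

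The difference between the layers, (AL5 - AL2) - (EP5 - EP2), was itself tested in the same fit. It was higher in 11 members and lower in 1, beside 9.14% and 6.07% of all tested genes. The median over the members was 0.22, against 0.05 over all tested genes. The share of members called higher, 12.4%, was close to that background. Without AL2 replicate 1 alone the count was 17, or 19.1% of the members beside 10.3% of the genes tested then. Leaving out any other single library of these groups gave 9 to 11. Without the 3 libraries that stood apart it was 16 (18% beside 9.38%), with 1 lower (1.12% beside 6.79%).

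Gene by gene, 34 members were lower in both layers, beside 14.9% of all tested genes, and 4 were higher in both, beside 14%. A further 14 were lower in EP with no call in AL (10.7% of tested genes were), 4 were lower in AL with no call in EP (7.32%), and 3 were higher in AL with no call in EP (8.19%). 1 member was higher in EP with no call in AL (6.97%), and 25 passed in neither (37%). In the direction of the rule, lower in EP and higher in AL, 4 members were called, beside 0.588% of all tested genes: Cs5g22910, Cs7g10560, Cs7g14760 and Cs8g19070. That contrast of layers resembles the one that chose the set, and the share was not tested against the background. Each of the 4 lost its call in AL when single libraries were left out, with limma adjusted p up to 0.402 for Cs5g22910 (without AL2 replicate 2), 0.0544 for Cs7g10560 (without AL5 replicate 2), 0.126 for Cs7g14760 (without AL5 replicate 2) and 0.247 for Cs8g19070 (without AL5 replicate 1). Of these, Cs7g14760 was named by a rule given in the methods, and the other 3 are named after their values were seen.

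**Figure D3:**
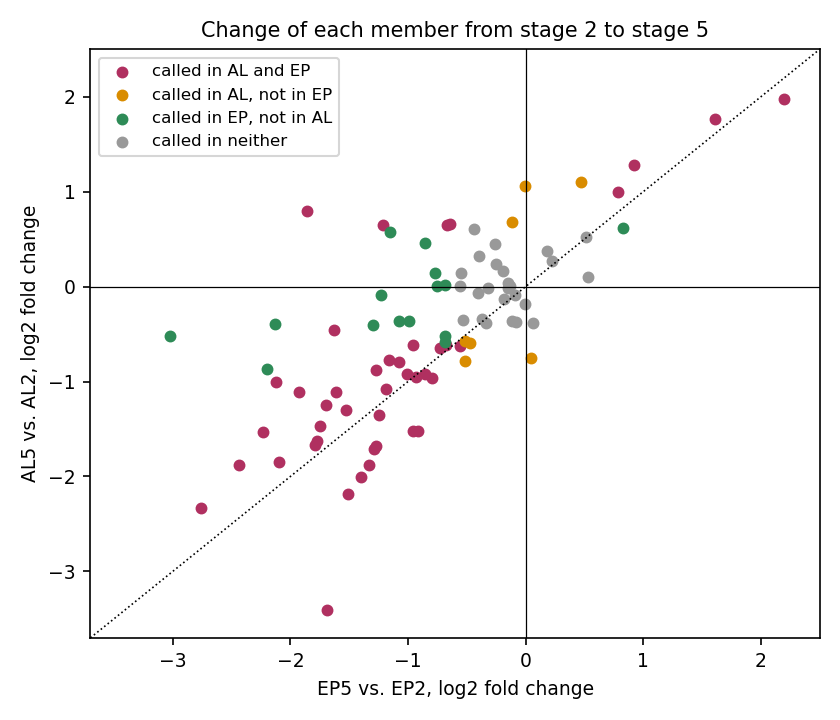
Log2 fold change of each of the 89 members in EP5 vs. EP2 (horizontal) and AL5 vs. AL2 (vertical), on the log2(FPKM + 1) scale from limma. Colours mark genes called at an adjusted p under 0.05 in both layers, in one of them or in neither, and the dotted line marks equal change; 34 of the points called in both lie at lower left, 4 at upper right and 4 at upper left.

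The 4 genes with opposite calls were low or moderate in level. Cs7g14760 had 3.73, 3.99 and 1.27 FPKM in AL5 against 1.57, 1.47 and 1.2 FPKM in AL2, and 0.904, 1.24 and 1.17 FPKM in EP5 against 3.9, 3.82 and 3.82 FPKM in EP2. The EP groups did not overlap, while replicate 3 of AL5 lay within the range of AL2. Its log2 fold change was 0.65 in AL5 vs. AL2 (SE 0.214, limma adjusted p = 0.0111) and -1.21 in EP5 vs. EP2 (SE 0.214, limma adjusted p = 5.16e-06), and the difference was 1.85 (SE 0.303, limma adjusted p = 4.7e-06).

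Cs5g22910 had 29.6, 40.3 and 29.2 FPKM in AL5 against 42.7, 12.4 and 15.8 FPKM in AL2, and 24.9, 29.2 and 21 FPKM in EP5 against 33.7, 45.1 and 42.2 FPKM in EP2. Replicate 1 of AL2 was above every AL5 library, so the AL groups overlapped, and that library is 1 of the 3 that stood apart. The limma adjusted p was 0.0357 in AL and 0.0304 in EP, for log2 fold changes of 0.65 and -0.67. Cs7g10560 had 6.87, 8.66 and 5.75 FPKM in AL5 against 5.73, 3.41 and 3.39 FPKM in AL2, and 1.34, 1.07 and 1.05 FPKM in EP5 against 3.05, 2.03 and 2.06 FPKM in EP2. In it, each group lay apart from its partner, by 5.75 against 5.73 FPKM at the nearest pair in AL.

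Cs8g19070 had 1.58, 0.24 and 0.719 FPKM in AL5 against 0.0586, 0 and 0 FPKM in AL2, and 0.38, 0.215 and 0.121 FPKM in EP5 against 1.76, 2.37 and 8.6 FPKM in EP2. The difference between layers was 2.65 on the log2(FPKM + 1) scale (limma adjusted p = 9.11e-06), at levels where the added 1 is larger than most of the values in AL.

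Cs5g30230 fell in all 4 tissues. The gene, with a group mean of 231 FPKM in SM2, 1 of the 2 highest levels in the set, had 33.4, 43 and 28.2 FPKM in AL5 against 128, 138 and 310 FPKM in AL2, and 19.6, 26.2 and 23.2 FPKM in EP5 against 122, 174 and 194 FPKM in EP2. No stage 5 library reached a stage 2 library in either layer. Its log2 fold change was -2.33 in AL5 vs. AL2 (SE 0.3, limma adjusted p = 6.83e-09) and -2.76 in EP5 vs. EP2 (SE 0.3, limma adjusted p = 4.53e-11), and the difference between these, 0.43, had a limma adjusted p of 0.616. The log2 fold change was -2.16 in SM5 vs. SM2 and -2.01 in JS5 vs. JS2, both called lower.

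Cs1g12520 fell more in AL than in EP and was the 1 member with a difference called lower. It had 2.25, 2.51 and 1.86 FPKM in AL5 against 42, 21.5 and 39.5 FPKM in AL2, and 2.94, 3.52 and 4.13 FPKM in EP5 against 15.4, 9.86 and 16.3 FPKM in EP2. In AL it was a transient, with 1.29, 1.86 and 1.96 FPKM in AL1 and 51.9, 48.1 and 27.6 FPKM in AL3. In AL4, 33.1, 22 and 26.3 FPKM remained. The group mean was highest at stage 3 in the other tissues too, at 37.6 FPKM in SM3, 33.8 FPKM in JS3 and 24.4 FPKM in EP3. The log2 fold change was -3.41 in AL5 vs. AL2 (SE 0.27, limma adjusted p = 3.01e-15) and -1.69 in EP5 vs. EP2 (SE 0.27, limma adjusted p = 6.91e-07), and the difference was -1.72 (SE 0.383, limma adjusted p = 0.000678).

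Cs8g08990 was lower in EP5 vs. EP2 and had no call in AL5 vs. AL2, and the difference itself passed. It had 16, 14.1 and 13.9 FPKM in AL5 against 29.3, 21.7 and 11.6 FPKM in AL2, which overlapped, and 7.49, 7.83 and 8.09 FPKM in EP5 against 44.3, 41 and 29 FPKM in EP2, which did not. The log2 fold change was -0.39 in AL5 vs. AL2 (SE 0.317, limma adjusted p = 0.331) and -2.13 in EP5 vs. EP2 (SE 0.317, limma adjusted p = 1.47e-07), and the difference was 1.74 (SE 0.448, limma adjusted p = 0.00378). AL4 held 39.4, 37.4 and 35.3 FPKM, the highest AL stage of this gene.

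Cs2g06290 had the lowest log2 fold change in EP5 vs. EP2, at -3.02 (SE 0.647, limma adjusted p = 0.000107), with 23.4, 10.4 and 18.8 FPKM in EP5 against 83.7, 182 and 189 FPKM in EP2. It was already at 5.81, 9.77 and 22.4 FPKM in EP3, so EP2 was a peak above both neighbours. In AL it had 15.8, 16.9 and 17.3 FPKM in AL5 against 1.28, 68.3 and 101 FPKM in AL2. Replicate 1 was the lowest of its stage 2 group in AL and in EP, and the log2 fold change in AL of -0.52 (SE 0.647) had a limma adjusted p of 0.56. Without AL2 replicate 1 the AL value was -2.25 (limma adjusted p = 0.000142), and without AL2 replicate 2 or AL2 replicate 3 it was 0.21 or 0.49 with no call.

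The highest group mean of the set, 269.7 ± 268 FPKM (SD, n = 3), was that of Cs1g19930 in AL2, where the libraries had 65.7, 171 and 573 FPKM. AL5 held 59.7, 54.7 and 40.6 FPKM, all below AL2. In EP it had 30.9, 37.9 and 28.4 FPKM in EP5 against 60.4, 168 and 277 FPKM in EP2. The log2 fold change was -1.85 in AL5 vs. AL2 (SE 0.613, limma adjusted p = 0.0112) and -2.10 in EP5 vs. EP2 (SE 0.613, limma adjusted p = 0.00375). Without AL2 replicate 3 the value in AL was -1.04 (limma adjusted p = 0.214), and without EP2 replicate 3 that in EP was -1.62 (limma adjusted p = 0.0502).

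The 5 members higher in EP5 vs. EP2 were Cs2g28030, Cs3g26650, Cs9g07445, Cs9g07450 and orange1.1t04233, of which Cs2g28030 and Cs3g26650 are named after their values were seen. All 5 had a lower mean in EP2 than in EP1, such as 14.8 FPKM in EP2 against 41.5 FPKM in EP1 for Cs2g28030. Replicate 3 raised the EP1 mean of Cs9g07445 (6.13, 3.78 and 25.9 FPKM) and of Cs9g07450 (13.4, 10.05 and 24.6 FPKM). Cs9g07445 had 4.74, 6.52 and 5.67 FPKM in EP6, so its fall in EP from stage 1 to stage 6 rested on that EP1 library. Cs9g07445 had 22.8, 13.4 and 11.7 FPKM in AL5 against 13.1, 1.62 and 0.912 FPKM in AL2, and 13, 9.58 and 9.38 FPKM in EP5 against 9.25, 0.328 and 0.174 FPKM in EP2. Replicate 1 was the highest of its stage 2 group in both layers and reached the range of stage 5 in AL. The log2 fold change was 1.98 in AL5 vs. AL2 (SE 0.697, limma adjusted p = 0.0169) and 2.20 in EP5 vs. EP2 (SE 0.697, limma adjusted p = 0.00767).

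Cs9g07450 had 22.6, 17.7 and 13.4 FPKM in AL5 against 15.8, 3.32 and 1.22 FPKM in AL2, and 14.1, 11.1 and 10.2 FPKM in EP5 against 10.4, 1.79 and 1.26 FPKM in EP2. It showed the same high replicate 1 at stage 2. Its log2 fold change was 1.77 in AL5 vs. AL2 (limma adjusted p = 0.00619) and 1.61 in EP5 vs. EP2 (limma adjusted p = 0.0121). The calls of both genes were lost without single stage 2 libraries: without EP2 replicate 3 the limma adjusted p in EP was 0.0825 for Cs9g07445 and 0.116 for Cs9g07450, and without AL2 replicate 3 it was 0.145 and 0.127 in AL. Without the 3 libraries that stood apart, the log2 fold changes in EP were 3.21 and 2.34. These 2 genes were the only members higher in all 4 tissues in stage 5 vs. stage 2, and whether reads are shared between them was not tested.

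**Figure D4:**
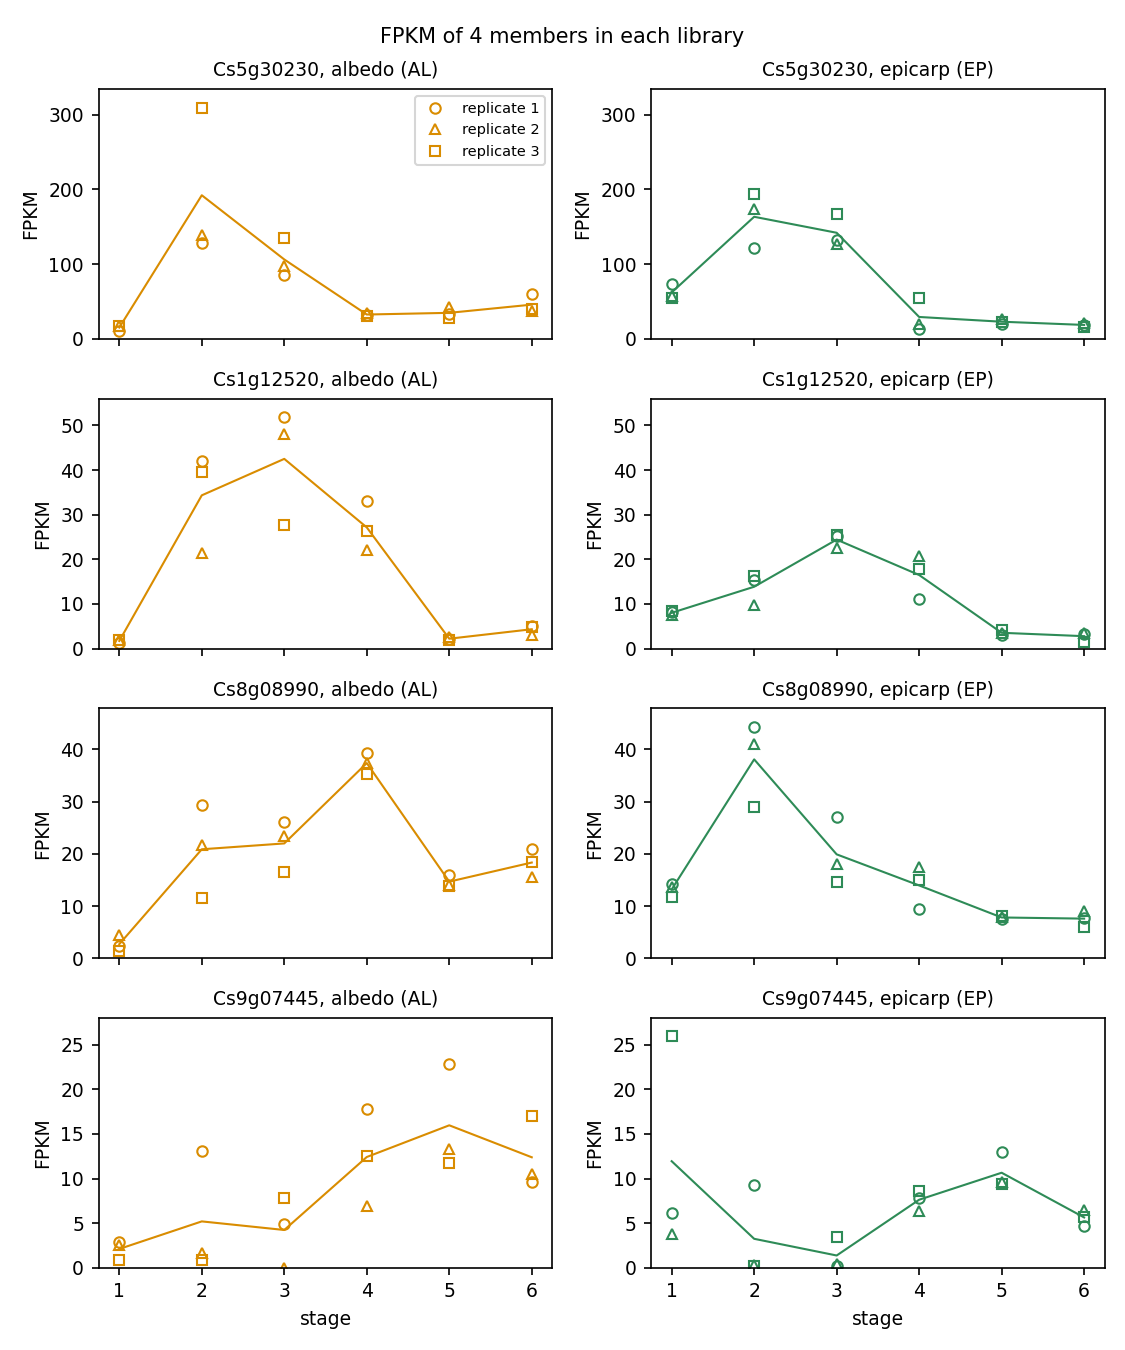
FPKM of Cs5g30230, Cs1g12520, Cs8g08990 and Cs9g07445 in AL (left) and EP (right) over stages 1 to 6. Symbols are the 3 replicates and lines join the group means; Cs1g12520 reaches 42 FPKM in AL2 and at most 2.51 FPKM in AL5, and replicate 1 of Cs9g07445 stands above the other replicates at stage 2 in both layers.

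Consecutive stages in EP were compared next. In EP3 vs. EP2, 4 members were lower and 4 higher (6.55% and 9.91% of all tested genes), with a median of -0.04. Without the 3 libraries that stood apart, 4 were lower and 9 higher, beside 8.29% and 15.3%. In EP4 vs. EP3, 18 were lower and 2 higher (10.2% and 8.74%), with a median of -0.33. Without EP4 replicate 1, 7 were lower, which is 7.87% of the members beside 6.48% of the genes tested then, and without EP3 replicate 1, 11 were (12.4% beside 8.32%). In EP5 vs. EP4, 17 were lower and 0 higher by limma at an adjusted p under 0.05 (14.6% and 6.91%), with a median of -0.41, and 36 members in either direction had an unadjusted p under 0.05. With median-ratio scaling 11 were lower (12.4% beside 10.9%), and without EP4 replicate 2, EP4 replicate 3, EP5 replicate 1 or EP5 replicate 2 there were 10 or 11 (11.2% to 12.4%, beside 10.6% to 10.9%). The share of members lower in each of these steps therefore came near the background without some single libraries and stayed above it without others. In EP4 vs. EP3 it was 27% beside 10.2% without EP4 replicate 3, and 15.7% beside 7.65% without EP4 replicate 2. In EP5 vs. EP4 it was 24.7% beside 13.2% without EP4 replicate 1, and 18% beside 12.6% without EP5 replicate 3. EP6 minus EP5, not tested, had a median of -0.17 and was negative in 68 members.

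In AL the most members were called lower in the last step tested. In AL3 vs. AL2, 0 members were lower and 0 higher by limma, and also by limma-voom on the recovered fragments, while 5 had an unadjusted p under 0.05. The background of that comparison was 0.682% lower and 0.115% higher, in the pair of groups with the widest replicate spread. Without the 3 libraries that stood apart, 4 members were lower and 7 higher, beside 8.29% and 9.06% of the genes tested then. In AL4 vs. AL3, 13 were lower and 8 higher (9.22% and 13.5%), with a median of -0.13. Without AL4 replicate 2 these were 6 and 7, beside 5.03% and 10.2% of the genes tested then. In AL5 vs. AL4, 27 were lower and 6 higher (13.5% and 13.8%), with a median of -0.28. AL6 minus AL5, not tested, had a median of 0.25 and was positive in 68 members. AL6, like EP6, was used by the rule, so nothing is read from this step.

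**Figure D5:**
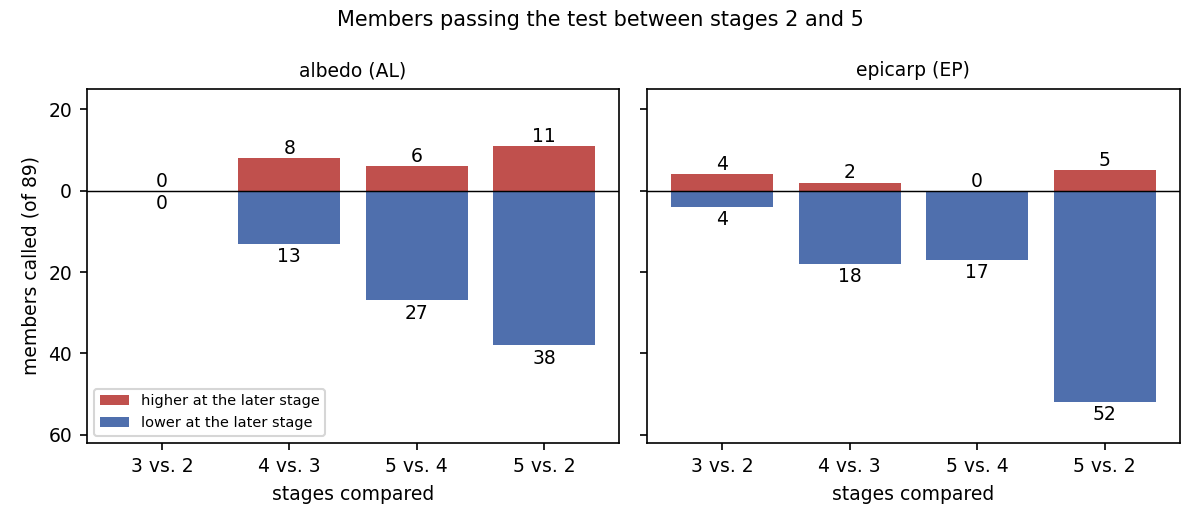
Number of the 89 members called at a limma adjusted p under 0.05 in consecutive stages from 2 to 5 and in stage 5 vs. stage 2, for AL (left) and EP (right). Bars above 0 are members higher and bars below 0 members lower at the later stage; in EP5 vs. EP2 5 were higher and 52 lower, and in AL5 vs. AL2 11 were higher and 38 lower.

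In the flesh, the members' median differences between stages 6 and 1 lay between those of the 2 peel layers, which the rule favours. SM6 minus SM1 had a median of 0.34, with 26 members at least 0.7 and 4 at most -0.7, beside 17.7% and 34.3% of all tested genes. JS6 minus JS1 had a median of -0.26, with 6 at least 0.7 and 25 at most -0.7, beside 18.9% and 33%. The rule bars a member from reaching 0.7 in SM and JS together, so these counts are partly set by it. Over all tested genes the medians of stage 6 minus stage 1 were 0.13 in AL, -0.25 in SM, -0.20 in JS and -0.20 in EP.

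SM, like AL, had its lowest median at stage 1. Its median log2(mean FPKM + 1) was 2.86, 3.27, 3.42, 3.29, 3.09 and 3.20 at stages 1 to 6, and SM was lowest at stage 1 in 36 members. The JS medians were 3.37, 3.27, 3.20, 3.11, 2.84 and 2.88, and JS was highest at stage 1 in 27 members. By their median at stage 1 the tissues stood in the order AL, SM, JS and EP from low to high. At stage 6 the order was EP, JS, SM and AL from low to high, and after median-ratio scaling EP, JS, AL and SM (2.68, 2.97, 3.24 and 3.40). The places of AL and EP at both stages are largely fixed by the rule, and the order was not tested.

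In stage 5 vs. stage 2 more members were lower than higher in both flesh tissues. In SM5 vs. SM2, 31 members were lower and 13 higher (24.6% and 25.1% of all tested genes), with a median of -0.31. In JS5 vs. JS2, 31 were lower and 13 higher (23.1% and 24%), with a median of -0.38. Across AL, SM, JS and EP, 21 members were lower in all 4 tissues (9.23% of all tested genes were) and 2 were higher in all 4 (9.21%). A further 14 were lower in EP and called lower in no other (7.06%), 6 were lower in some tissue and higher in another (3.99%), and 15 were called in none (20.6%).

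Genes that met the EP or the AL condition but were no members give a scale for these shares. Both sets include the 10 genes that met both conditions and were left out by the last condition only. The sets shared the libraries and part of the rule with the members, and the differences between sets were not tested. Among the 89 members, 58.4% were lower in EP5 vs. EP2, against 62.8% of the 2002 genes that met the EP condition, the level range and the span but were no members. In AL5 vs. AL2, 42.7% of members and 56.4% of those genes were lower. Among the 3054 genes that met the AL condition and were no members, 5.27% were lower in AL5 vs. AL2 and 48.9% higher, against 12.4% of members higher. AL2 minus AL1 was at least 0.7 in 73% of members, 37.8% of the other AL-rising genes and 21.3% of the other EP-falling genes. In stage 5 vs. stage 2 the members' shares of lower genes thus lay nearer those of the other EP-falling genes. AL2 minus AL1 rests on AL1, which chose the members and the AL-rising genes, so its shares are a description.

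Length, kind of ID and depth were not used by the rule and were not tested between the sets. The members' median length, as recovered from the FPKM steps, was 1800 bases, against 1641 bases for all tested genes. The members comprised 79 IDs with the prefix Cs, 7 with orange1.1t and 3 with the prefix seen in Novel00651, or 88.8%, 7.87% and 3.37%, against 80.1%, 14.2% and 5.69% of all tested genes. A member had a median of 297 fragments per library, against 208 for all tested genes. An FPKM of 0 in at least 1 library was seen in 2 members, Cs8g19070 and Cs9g07445.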

How the data were processed

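Poly(A)-selected RNA of 72 libraries (24 groups of 3) was sequenced by the authors, who filtered the reads and mapped them to the C. sinensis genome with TopHat2. They deposited 1 FPKM value per gene and library, made with HTSeq 0.6.1. The submitters' processing notes also name Cufflinks, and the authors' count tests were not used. All 72 columns were matched to samples by name.

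The members, the lists and the comparisons were chosen with earlier results of these data known. Tests used limma 3.58.1 in R 4.3.3 (trend and robust settings) on log2(FPKM + 1) in a single fit of 24 groups, for the 20077 genes that reached an FPKM of 1 in 3 or more libraries, with Benjamini-Hochberg adjustment over all of them and a threshold of 0.05. A fold change on this scale understates the change of low genes. Libraries were taken as independent, although all came from one set of trees. Fragments per gene came out whole (within 0.0001, or 0.001 at high counts) for 27759 of 27759 genes above 0 and were used for depth and for limma-voom. The fit and the recovery were tested on simulated data.

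Alternatives were other scalings and pseudocounts, no filter, only the groups compared, limma-voom, a replicate block and leaving out libraries. Leaving out replicate 1 of AL2, AL3 and EP2 together, and a block within each stage, were chosen after seeing the data. Replicate numbers were checked as pairs: deviations from the group means correlated above 0.1 for all 3 numbers in 3 of 12 pairs of groups (EP3 with EP2, AL2 with EP2, and AL5 with EP5), so a replicate block was fitted as an alternative.

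Named genes were the 2 highest and 2 lowest changes of EP5 vs. EP2, of AL5 vs. AL2 and of their difference. They were taken among members with a limma adjusted p under 0.05 in that comparison. The higher of the 2 groups compared, or the highest of all 24 groups for the difference, had to have a mean of at least 10 FPKM. The 2 highest group means and the 2 genes on each side of each threshold were added. Of the 30940 IDs, 0 matched the reference table (RefSeq, DVS_A1.0), so marker lists were not used, and strand or reads shared between similar or overlapping genes could not be checked.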

Additional observations from a re-analysis of the deposited data

Results flagged for a closer look

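The change from stage 2 to stage 5 differed between AL and EP, by a test of the difference itself (limma, all 24 groups, adjusted p under 0.05), in 12 members. The difference was higher in AL for 11 of them (12.4% of the members, beside 9.14% of all tested genes) and lower for 1 (1.12%, beside 6.07%), shares that are near or under the background in this fit. Without AL2 replicate 1 the share higher was 19.1%, beside 10.3% of the genes tested then. Of the 11, 4 were higher in AL and lower in EP, 5 were lower in EP with no call in AL, 1 was lower in both layers, and 1, Cs4g09280, was higher in AL (1.06) with no call in EP (-0.01).

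Among the genes named by rule, the difference was 1.85 in Cs7g14760, 1.74 in Cs8g08990 and -1.72 in Cs1g12520. Groups of 3 libraries were too small for a check of single outlying values.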

How the results depend on the processing

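Fitting only the groups compared left 1 member higher in EP5 vs. EP2 and 1 in AL5 vs. AL2, beside 19.6% and 15% of the genes tested then. It left 5 in the difference between AL and EP and 6 in JS5 vs. JS2, beside 5.03% and 26.2%. In the same fit, EP3 vs. EP2 had 1 lower and 0 higher (2.77% and 3.02%), and EP5 vs. EP4 had 1 higher (11.1%). AL4 vs. AL3 had 2 lower and 0 higher (0.846% and 1.68%), and AL5 vs. AL4 had 2 higher (11.6%). Other counts were larger in that fit: SM5 vs. SM2 had 38 lower and 17 higher (31.7% and 34.4%), and EP5 vs. EP4 had 25 lower (19.6%). With all 24 groups these were 31, 13 and 17. Such a fit has fewer libraries and fewer degrees of freedom, and whether this moved the counts was not tested. With a pseudocount of 0.1, EP3 vs. EP2 had 2 lower and 1 higher (4.98% and 8.25% of all tested genes). With median-ratio scaling, EP3 vs. EP2 had 1 higher (7.06%), EP5 vs. EP4 had 11 lower (10.9%), and 23 genes met the rule. With a pseudocount of 0.1, 133 genes met it, 74 of them members. Without the 3 libraries that stood apart (chosen after seeing the data), EP3 vs. EP2 had 9 higher (15.3%). In that fit EP4 vs. EP3 had 4 higher (11.6%), EP5 vs. EP4 1 higher (9.06%), and AL3 vs. AL2 4 lower and 7 higher (8.29% and 9.06%). The causes of all these changes were not tested.

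Leaving out 1 library at a time, the members lower and higher ranged from 43 to 52 and 0 to 7 in EP5 vs. EP2, from 31 to 35 and 3 to 15 in AL5 vs. AL2, and from 1 to 1 and 9 to 17 in the difference. They ranged from 27 to 30 and 9 to 11 in SM5 vs. SM2, and from 27 to 31 and 5 to 12 in JS5 vs. JS2 (8 without JS2 replicate 1 and 5 without JS2 replicate 3). In EP3 vs. EP2 they ranged from 2 to 4 (2 without EP2 replicate 1, EP3 replicate 1 or EP3 replicate 2) and 0 to 4 (0 without EP3 replicate 1, and 1 without EP2 replicate 2, EP2 replicate 3 or EP3 replicate 2). In EP4 vs. EP3 they ranged from 7 to 24 (7 without EP4 replicate 1 and 11 without EP3 replicate 1) and 0 to 3 (0 without replicate 2 of EP3 or EP4, and 1 without replicate 1 of EP3 or EP4 or replicate 3 of EP4). In EP5 vs. EP4 they ranged from 10 to 22 (10 without EP4 replicate 2, and 11 without EP4 replicate 3, EP5 replicate 1 or EP5 replicate 2) and stayed at 0. In AL3 vs. AL2 they ranged from 0 to 3 (3 without AL2 replicate 1 and 1 without AL3 replicate 1) and 0 to 2 (2 without AL2 replicate 1), in AL4 vs. AL3 from 6 to 18 (6 without AL4 replicate 2) and 4 to 11 (4 without AL4 replicate 1), and in AL5 vs. AL4 from 21 to 29 and 4 to 7. The rule kept 66 to 89 members.

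With the replicate number as a block, 52 members were lower and 5 higher in EP5 vs. EP2, 38 and 11 in AL5 vs. AL2, 1 and 12 in the difference, and 5 and 4 in EP3 vs. EP2; a block within each stage gave 1 and 11 for the difference. No count of members moved by over 1.5 times with the block. The balance of members lower against higher turned in AL4 vs. AL3 without AL4 replicate 2 (6 lower and 7 higher, beside 5.03% and 10.2% of the genes tested then). EP3 vs. EP2, with equal counts of 4, had 5 lower and 1 higher with median-ratio scaling and 4 lower and 9 higher without the 3 libraries. In the other comparisons with members called in both directions or in one, the balance kept its side under the alternatives run.

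Of 37 calls of single genes named in the text that were run under the alternatives, 16 held under all of them, and 21 were lost under at least 1. Those that held were all calls run for Cs1g12520, Cs5g30230 and Cs8g08990, the EP calls of Cs2g06290, Cs7g14760 and Cs8g19070, the differences of Cs7g10560, Cs7g14760 and Cs8g19070, and the AL call of Cs4g09280. AL5 vs. AL2 of Cs2g06290 had no call at -0.52, was called at -2.25 without AL2 replicate 1, and changed sign to 0.21 without AL2 replicate 2 and 0.49 without AL2 replicate 3.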
